A study of Homo sapiens with 12 samples.

Results

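The TIMP genes encode tissue inhibitors of metalloproteases, and the MMP genes encode the matrix metalloproteases that they inhibit. A set of 8 such genes, TIMP1, TIMP2, TIMP3, TIMP4, MMP2, MMP9, MMP14 and MMP15, was chosen by gene symbol from the 62753 genes of the expression table. The choice was made with earlier results of these data known, including their responses in the 4 groups, so the members' differences between groups are given as a description. Their standard errors and call status come from a model of the whole table, and no p-value is printed for them. Only genes outside the set are given with adjusted p-values.

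RNA was sequenced from H9, an established line of human embryonic stem cells. The growth labels of all 12 libraries place the cells in PXGL, a medium for the naive state that blocks MEK, tankyrase and protein kinase C and supplies LIF, on a layer of mouse embryonic fibroblasts. There were 4 groups of 3 libraries. The siNC group carries a control siRNA and the genotype label WT, siOGA is labelled OGA knockdown, and siP300 is labelled EP300 knockdown. The siP300+OGA group takes its siRNA from its titles and is labelled OGA overexpression, and its titles lack the word PXGL that the other titles hold. The sources used here give no construct, siRNA sequence, dose or time of harvest, and nothing states whether the libraries of a group were separate cultures, so the errors below measure only the spread between these libraries. The product of OGA takes O-GlcNAc, a single sugar, off nuclear and cytoplasmic proteins, while that of EP300 acetylates histones. By its title, the series concerns the part of OGA in pluripotency states.

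Matrix metalloproteases are zinc enzymes made as inactive precursors, and they cut collagens, laminins, growth factor carriers and cell surface proteins. A TIMP binds the active site of such an enzyme in a tight complex of 1 inhibitor with 1 protease. The TIMP1 product is soluble and inhibits the membrane-bound enzymes poorly, the TIMP2 product also takes part with MMP14 in switching on MMP2, the TIMP3 product stays bound to the matrix and inhibits ADAM and ADAMTS enzymes as well, and the TIMP4 product has the narrowest tissue range of the 4. MMP2 and MMP9 are the secreted gelatinases, which cut denatured collagen and the collagen IV of basement membranes. MMP14 and MMP15 are held in the cell membrane by a membrane-spanning stretch.

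Whole reads could be recovered behind the deposited FPKM values (reads or fragments scaled to gene length and library size by the authors), and they summed to between 16238225 and 18714572 per library. A gene of 1 kilobase with 1 read stood at 0.0518 to 0.0647 FPKM. OGA stood at 40.5 ± 0.431 FPKM (SD, n = 3) in siNC, 8.1 ± 0.771 in siOGA, 39.8 ± 1.97 in siP300 and 43.8 ± 0.741 in the libraries labelled siP300+OGA. The last value did not pass the test against siP300 (limma, adjusted p = 0.0636), so the OGA transcript does not mark those libraries as overexpressing it. EP300 stood at 23.2 ± 0.355 FPKM in siNC, 23.5 ± 0.520 in siOGA, 13.3 ± 0.108 in siP300 and 15.4 ± 0.329 in the libraries labelled siP300+OGA. It fell by 0.76 on the log2 scale in siP300 against siNC (adjusted p = 2e-09), and it was 0.20 higher in siP300+OGA than in siP300 (adjusted p = 0.000182). The groups of the last comparison therefore differ in EP300 too, at 57.2% and 66.4% of the siNC level, and the part of this in their other differences was not tested. The naive markers KLF17 (19 FPKM), SUSD2 (47.2 FPKM) and DPPA5 (577 FPKM) and the core factor POU5F1 (430 FPKM) were present in siNC.

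Levels of all 8 genes were within the range this depth resolves. The fewest reads behind a value were 37, for TIMP3 in siNC replicate 3, and the most were 3374, for MMP15 in siOGA replicate 2. All 8 had a mean of at least 1 FPKM over the 12 libraries, the minimum for the test, which kept 13166 genes. Groups were compared on log2(FPKM + 1), a scale that understates the change of low genes, and a gene was called when its adjusted p was under 0.05 over all tested genes. Since these are bulk samples, a higher transcript level cannot be told apart from a larger share of cells that carry the transcript. Fold values given below are ratios of mean FPKM.

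**Figure D1:**
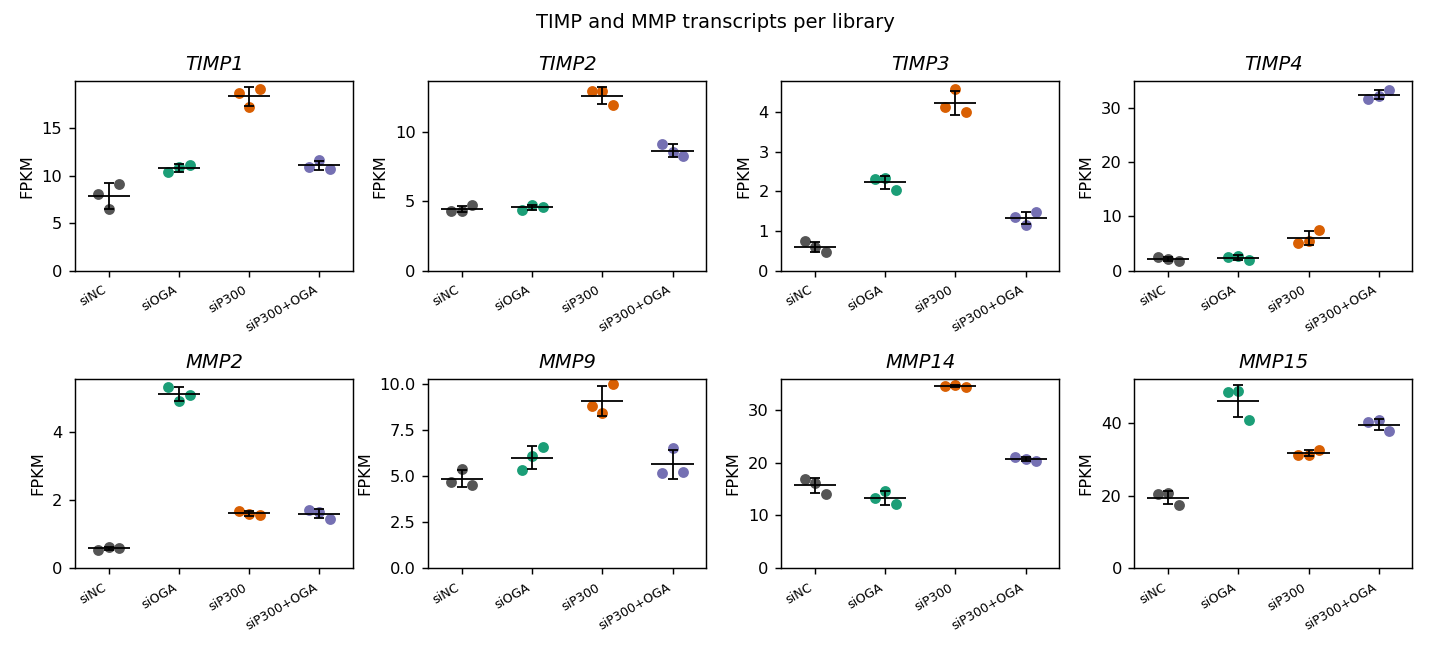
FPKM of the 8 genes in each library, 1 panel per gene, with group on the horizontal axis and FPKM on the vertical axis. Points are single libraries, the wide line is the group mean and the bars are the SD of 3 libraries. TIMP4 stands apart in the libraries labelled siP300+OGA at 31.6 to 33.3 FPKM, and MMP2 in siOGA at 4.91 to 5.32 FPKM.

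The inhibitors had different patterns over the groups. TIMP4 and TIMP3 were the clearest case, since in the libraries labelled siP300+OGA one was far above and the other far below its level in siP300. Their promoters, from 250 bases before to 50 bases after the annotated start in RefSeq on GRCh38.p14, are shown because these 2 genes separated most. Capitals mark each match to the GC box, GGGCGG, the letters bound by the SP family, on either strand (CCGCCC on the reverse strand). TIMP3 lies at chr22:32801455-32801754 on the plus strand and TIMP4 at chr3:12158863-12159162 on the minus strand.
TIMP3: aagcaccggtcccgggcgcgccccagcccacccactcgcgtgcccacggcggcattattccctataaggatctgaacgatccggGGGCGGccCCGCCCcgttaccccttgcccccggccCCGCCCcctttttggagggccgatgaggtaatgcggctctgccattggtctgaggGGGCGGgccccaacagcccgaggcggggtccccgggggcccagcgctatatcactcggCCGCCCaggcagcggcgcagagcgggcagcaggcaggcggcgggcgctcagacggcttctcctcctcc
TIMP4: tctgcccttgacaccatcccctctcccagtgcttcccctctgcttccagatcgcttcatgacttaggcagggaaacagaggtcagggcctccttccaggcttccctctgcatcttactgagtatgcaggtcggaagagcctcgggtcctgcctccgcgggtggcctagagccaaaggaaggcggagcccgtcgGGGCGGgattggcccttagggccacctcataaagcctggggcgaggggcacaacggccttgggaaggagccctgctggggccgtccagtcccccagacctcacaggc
The TIMP3 window held 5 GC boxes, at -166, -158, -131, -76 and -18 from the start, and the TIMP4 window held 1, at -57, each counted to the first base of the match with the start as 0. TIMP3 had 31 CpG dinucleotides and TIMP4 had 12, against a median of 14 over 35116 promoters of the same length.

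The TIMP4 level was 2.56, 2.11 and 1.85 FPKM in siNC replicates 1, 2 and 3, 2.44, 2.77 and 1.96 FPKM in siOGA, 5.17, 5.44 and 7.52 FPKM in siP300, and 31.6, 32.2 and 33.3 FPKM in the libraries labelled siP300+OGA. The siNC and siOGA libraries overlapped, siP300 lay above both, and all 3 siP300+OGA libraries lay above every other library. Against siP300 the libraries labelled siP300+OGA were 5.36-fold higher, a log2 difference of 2.26 (SE 0.126), which is number 1 among the rises of all 13166 tested genes in that comparison. Against siNC they were 14.9-fold higher, a log2 difference of 3.40 and number 2 among the rises. The siP300 group was 2.78-fold higher than siNC (1.14 on the log2 scale).

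TIMP4 lies inside the SYN2 gene on the opposite strand (chr3:12153068-12158912 in the deposited table, on GRCh38). In GENCODE release 29, 170 of its 1650 exon bases are shared with SYN2 exons. The libraries were made by a method that marks the strand, per the labels' protocols, but no source used here gives the strand used in counting, so a part of the reads could belong to SYN2. SYN2, which encodes a synaptic vesicle protein, stood at 1.85 FPKM in siNC, 2.07 in siOGA, 1.57 in siP300 and 2.85 in the libraries labelled siP300+OGA, and it rose by 0.58 on the log2 scale from siP300 to siP300+OGA (limma, adjusted p = 2.52e-05). Its part in the TIMP4 value was not tested.

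TIMP3 was at 0.735, 0.598 and 0.468 FPKM in siNC, at 2.32, 2.33 and 2.03 FPKM in siOGA, at 4.14, 4.58 and 4.0 FPKM in siP300 and at 1.34, 1.16 and 1.47 FPKM in the libraries labelled siP300+OGA. No 2 groups overlapped, and the order from low to high was siNC, siP300+OGA, siOGA and siP300. The siP300 mean was 7.06-fold that of siNC (log2 difference 1.71, SE 0.0818) and the siOGA mean was 3.71-fold that of siNC (1.01). The libraries labelled siP300+OGA were 3.20-fold lower than siP300, a log2 difference of -1.17, but still 2.21-fold above siNC (0.54). TIMP3 also lies within a synapsin gene, SYN3, on the other strand (chr22:32801705-32863041), with no shared exon base. SYN3 stood at 6.72 FPKM in siNC, 8.37 in siOGA, 2.96 in siP300 and 2.5 in the libraries labelled siP300+OGA. It moved against TIMP3 in siP300 against siNC (log2 difference -0.96, limma adjusted p = 1.36e-08), but the same way as TIMP3 in siOGA against siNC (0.28, adjusted p = 0.000275) and from siP300 to siP300+OGA (-0.18, adjusted p = 0.00781), and its part in the TIMP3 values was not tested.

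TIMP1 had 8.03, 6.44 and 9.14 FPKM in siNC, 10.4, 10.9 and 11.1 FPKM in siOGA, 18.7, 17.3 and 19.1 FPKM in siP300 and 10.9, 11.6 and 10.7 FPKM in the libraries labelled siP300+OGA. The siOGA and siP300+OGA libraries overlapped, siNC lay below them and siP300 above. The log2 difference from siNC was 0.42 in siOGA (SE 0.0911), 1.14 in siP300 and 0.46 in siP300+OGA, and that of siP300+OGA from siP300 was -0.68, a level 1.65-fold lower. TIMP1 lies at chrX:47582408-47586789, inside SYN1 on the opposite strand, and shares no exon base with it. SYN1 was at 0.66 FPKM in siNC, 0.533 in siOGA, 1.7 in siP300 and 1.63 in siP300+OGA, and it rose with TIMP1 in siP300 against siNC (0.71, limma adjusted p = 0.000265). Its part in the TIMP1 values was not tested.

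TIMP2, on the minus strand at chr17:78852977-78925387, was at 4.33, 4.32 and 4.71 FPKM in siNC, 4.40, 4.76 and 4.57 FPKM in siOGA, 13.0, 13.0 and 11.9 FPKM in siP300 and 9.14, 8.58 and 8.24 FPKM in the libraries labelled siP300+OGA. The siOGA and siNC libraries overlapped (log2 difference 0.03, SE 0.0509, not called), while siP300 was 2.84-fold above siNC (1.32). The siP300+OGA libraries lay between, 1.46-fold below siP300 (-0.50) and 1.94-fold above siNC (0.82). All inhibitors but TIMP4 were thus lower in siP300+OGA than in siP300.

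Of the secreted gelatinases, MMP2 (chr16:55389700-55506691) was low in siNC, at 0.533, 0.620 and 0.594 FPKM, and reached 5.32, 4.91 and 5.09 FPKM in siOGA. It was at 1.68, 1.59 and 1.56 FPKM in siP300 and at 1.71, 1.65 and 1.45 FPKM in the libraries labelled siP300+OGA. The siOGA libraries were the highest of the 12, the siP300 and siP300+OGA libraries overlapped in the middle, and siNC was the lowest. Relative to siNC, the siOGA mean was 8.77-fold higher (log2 difference 1.95, SE 0.0587), the siP300 mean was 2.77-fold higher (0.72) and the siP300+OGA mean was 2.76-fold higher (0.72). The libraries labelled siP300+OGA were not called against siP300 (log2 difference -0.01, SE 0.0587).

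MMP9 (chr20:46008908-46016561) had the narrowest range over the groups. Its levels were 4.69, 5.40 and 4.51 FPKM in siNC, 5.32, 6.10 and 6.58 FPKM in siOGA, 8.79, 8.43 and 10.0 FPKM in siP300 and 5.16, 6.55 and 5.20 FPKM in the libraries labelled siP300+OGA. The siP300 libraries were above all the others, and the libraries of the other groups overlapped. The siP300 mean was 1.86-fold that of siNC (log2 difference 0.78, SE 0.0991). The siOGA difference from siNC, 0.25, was called with all libraries but not without siNC replicate 1 (0.23), siNC replicate 3 (0.21), siOGA replicate 2 (0.24), siOGA replicate 3 (0.19) or siP300 replicate 1 (0.25). That of siP300+OGA from siNC, 0.17, was not called, and it ranged from 0.08 without siP300+OGA replicate 2 to 0.24 without siNC replicate 2.

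The membrane-bound pair, MMP14 and MMP15, had the highest levels among the 8 genes in siNC. They are shown together because in siOGA one was below and the other above its siNC level. MMP14 starts on the plus strand of chromosome 14, and its window is chr14:22836335-22836634. MMP15 starts on the plus strand of chromosome 16, and its window is chr16:58025504-58025803. Capitals again mark GC boxes on either strand in RefSeq promoters on GRCh38.p14.
MMP14: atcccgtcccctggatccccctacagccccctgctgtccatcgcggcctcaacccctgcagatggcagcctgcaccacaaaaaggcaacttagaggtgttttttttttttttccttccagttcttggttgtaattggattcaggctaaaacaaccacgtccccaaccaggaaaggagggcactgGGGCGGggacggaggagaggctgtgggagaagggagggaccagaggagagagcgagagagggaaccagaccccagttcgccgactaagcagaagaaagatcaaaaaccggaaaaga
MMP15: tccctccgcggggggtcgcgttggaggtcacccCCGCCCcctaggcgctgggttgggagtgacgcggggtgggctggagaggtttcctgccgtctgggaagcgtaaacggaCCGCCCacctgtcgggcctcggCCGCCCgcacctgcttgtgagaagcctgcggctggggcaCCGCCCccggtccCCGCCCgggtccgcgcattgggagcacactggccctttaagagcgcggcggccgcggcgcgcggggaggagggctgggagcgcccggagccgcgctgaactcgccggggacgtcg
The MMP15 window held 5 GC boxes, at -217, -139, -117, -78 and -65, with 39 CpG dinucleotides and 75.3% G or C. The MMP14 window held 1, at -66, with 10 CpG dinucleotides and 55% G or C. RefSeq entries were found for 5 of the 8 genes, TIMP1 (2 GC boxes, 16 CpG dinucleotides), TIMP3, TIMP4, MMP14 and MMP15. Of all 35116 promoters, 45% held a GC box, 7.71% held the AP-1 letters TGANTCA and 11.5% the TATA letters TATAAA, searched on both strands, and none of the 5 windows held either of the last 2 motifs.

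MMP14 stood at 16.8, 16.1 and 14.1 FPKM in siNC, 13.3, 14.7 and 12.1 FPKM in siOGA, 34.4, 34.7 and 34.3 FPKM in siP300 and 21.0, 20.6 and 20.3 FPKM in the libraries labelled siP300+OGA. The siNC and siOGA libraries overlapped, those of siP300+OGA were higher and those of siP300 highest. The siP300 mean was 2.20-fold that of siNC (log2 difference 1.09, SE 0.0682), and the siP300+OGA mean was 1.67-fold below siP300 (-0.71). Against siNC the libraries labelled siP300+OGA were 1.32-fold higher (0.38, or 0.17 with the median of the genes in the same 20 Mb removed, called both ways). The difference of siOGA from siNC, -0.22, was called, but not in a fit of only these 2 groups, nor without siNC replicate 1 (-0.17), siNC replicate 2 (-0.20) or siOGA replicate 3 (-0.15).

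MMP15 gave 20.3, 20.6 and 17.3 FPKM in siNC, 48.3, 48.8 and 40.8 FPKM in siOGA, 31.3, 31.2 and 32.5 FPKM in siP300 and 40.1, 40.7 and 37.8 FPKM in the libraries labelled siP300+OGA. The order was siNC, siP300, siP300+OGA and siOGA, unlike that of MMP14, and no neighbours overlapped, although the lowest siOGA library (40.8 FPKM) was close to the highest siP300+OGA library (40.7 FPKM). The siOGA mean was 2.37-fold that of siNC (log2 difference 1.20, SE 0.0753), against 1.63-fold in siP300 (0.68). From siP300 to siP300+OGA it was 1.25-fold higher (0.31), which was not called once the median difference of the genes in the same 20 Mb was removed (0.19).

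**Figure D2:**
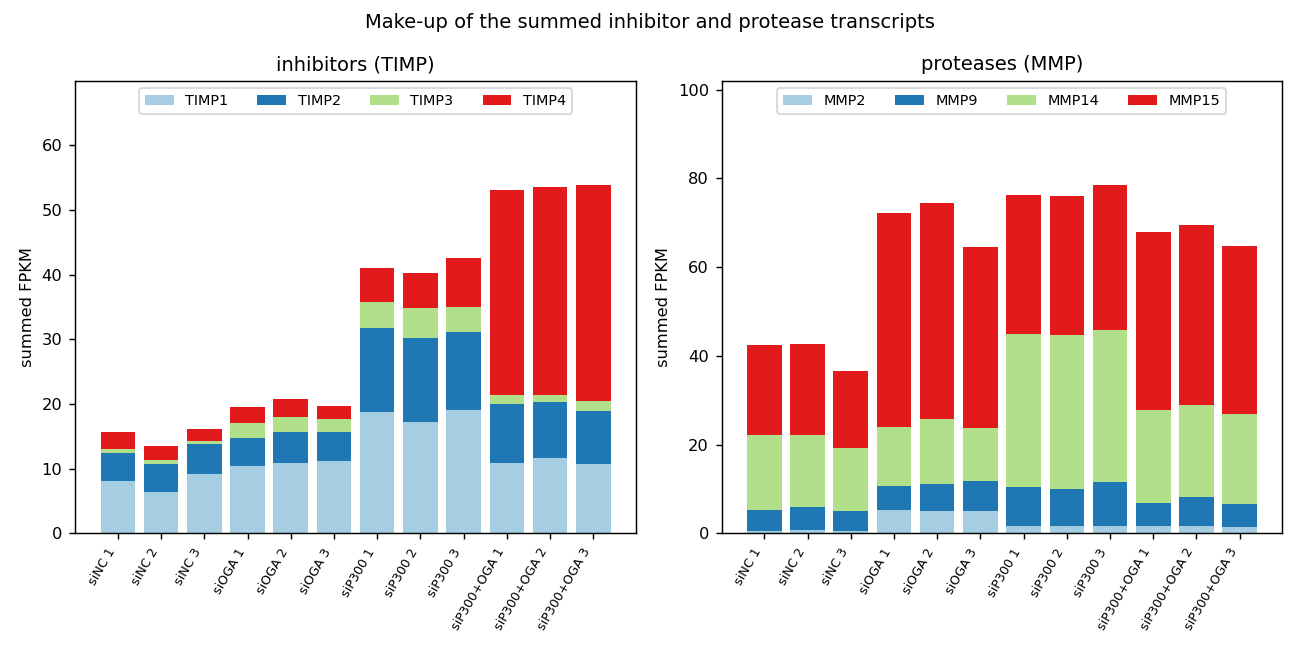
Summed FPKM of the 4 inhibitors (left) and of the 4 proteases (right) in each of the 12 libraries, with library on the horizontal axis and the contribution of each gene stacked in colour. TIMP4 makes up 14.5% of the inhibitor sum in siNC and 60.6% in the libraries labelled siP300+OGA, and MMP15 makes up 65.2% of the protease sum in siOGA.

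Because FPKM is per length, the members can be summed. The 4 inhibitors together gave 13.5 to 16.2 FPKM over the 3 libraries of siNC, 19.5 to 20.8 in siOGA, 40.3 to 42.6 in siP300 and 53.0 to 53.8 in those labelled siP300+OGA. The 4 proteases gave 36.5 to 42.7, 64.6 to 74.5, 75.9 to 78.4 and 64.7 to 69.5 FPKM in the same order. Protease transcripts thus exceeded inhibitor transcripts in each library. Their ratio, inhibitor sum over protease sum, was lowest in siOGA at 0.270 to 0.305. It was 0.315 to 0.443 in siNC, 0.530 to 0.543 in siP300 and 0.771 to 0.831 in siP300+OGA, with no overlap between groups. This order was read for these 4 proteases only. The 19 other MMP genes, left out of the ratio, summed to 22.4 to 27.1 FPKM in siNC and 27.9 to 29.5 in siOGA. Their sum was 26.4 to 27.1 FPKM in siP300 and 30.0 to 32.0 in siP300+OGA. Whether the groups stay apart with these genes counted was not tested. The make-up of the inhibitor sum differed as well. TIMP1 gave 51.9% of it in siNC, 54.1% in siOGA and 44.5% in siP300, but 20.7% in the libraries labelled siP300+OGA, where TIMP4 gave 60.6 ± 1.23%. TIMP1, TIMP2 and TIMP3 were each lower there than in siP300.

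Ratios between partners differed between the groups. MMP14 over MMP15 was 0.808 ± 0.0235 in siNC, 0.291 ± 0.0140 in siOGA, 1.09 ± 0.0304 in siP300 and 0.523 ± 0.0151 in the libraries labelled siP300+OGA (SD, n = 3). MMP14 was the higher of the membrane-bound pair in siP300 alone among the 4 groups. MMP2 over TIMP2 was 0.131 ± 0.0111 in siNC and 0.128 ± 0.00439 in siP300, close to each other although both genes were higher in siP300. In siOGA, where MMP2 was high and TIMP2 was not, the same ratio was 1.12 ± 0.0888, and in siP300+OGA it was 0.185 ± 0.00829. These ratios are of transcripts, and protein, activation and inhibition were not measured.

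In siOGA against siNC, MMP2, MMP15 and TIMP3 had the largest differences of the 8, and MMP14 was the member called lower. In all, 5 members were called higher (MMP2, MMP15, TIMP3, TIMP1 and MMP9), 1 lower and 2 not called (TIMP2 and TIMP4). Their median log2 difference was 0.34, and that of all tested genes was 0.01. Of all 13166 tested genes 66.9% were called in this comparison, 34% higher and 32.9% lower. The members were chosen with these results known, and nothing is read from their count.

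In siP300 against siNC all 8 members were called higher, from 0.68 for MMP15 to 1.71 for TIMP3 on the log2 scale, with a median of 1.11 against -0.04 for all tested genes. In this comparison 65.9% of tested genes were called, 30.2% higher and 35.7% lower. The 4 inhibitors and the 4 chosen proteases were therefore higher together. The inhibitor sum was 2.73 times and the sum of these 4 proteases 1.895 times its siNC level. The 19 other MMP genes, outside that sum, together averaged 25.2 FPKM in siNC and 26.7 in siP300.

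The comparison of siP300+OGA with siP300 split the set. TIMP4 and MMP15 were called higher, TIMP1, TIMP2, TIMP3, MMP9 and MMP14 were called lower, and MMP2 was not called, with a median of -0.55 against 0.03 for all tested genes. Of all tested genes 48.2% were called, 27% higher and 21.2% lower. Relative to siNC, the libraries labelled siP300+OGA had 7 members called higher, and MMP9 was not called, with a median of 0.63 against -0.002 for all tested genes, where 60.9% of tested genes were called, 30.8% higher and 30.2% lower. These comparisons share the siP300 or siNC libraries, so they are not independent of each other.

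Set directly against siP300, siOGA had 2 members called higher, MMP2 (1.23) and MMP15 (0.52), and 6 called lower, from -0.53 for MMP9 to -1.31 for MMP14. TIMP2 (-1.29) and TIMP4 (-1.05) were among those called lower. The median was -0.71 against 0.04 for all tested genes, of which 74.1% were called, 39.3% higher and 34.8% lower.

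**Figure D3:**
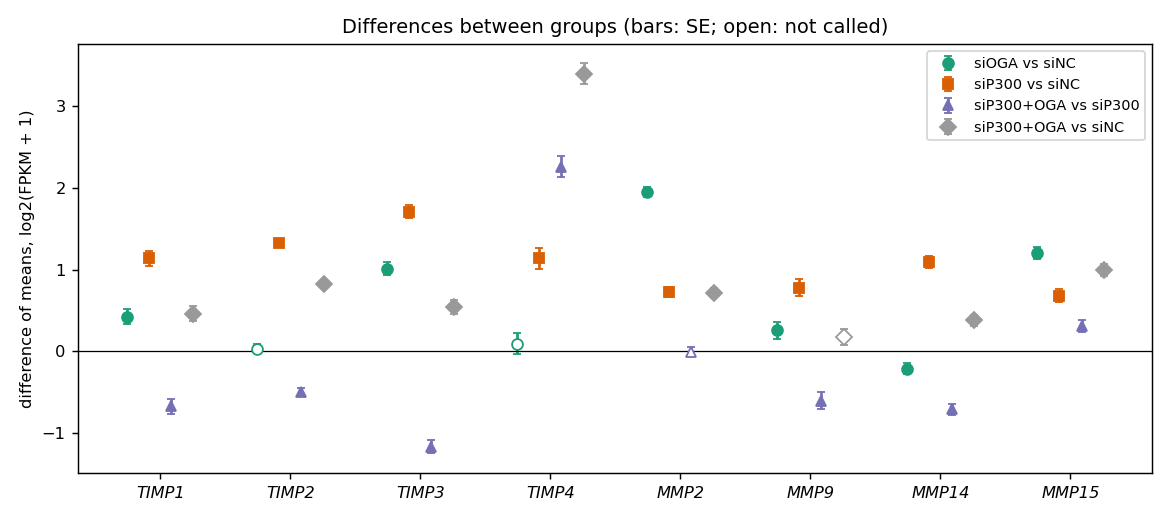
Differences of group means on the log2(FPKM + 1) scale (vertical axis) for the 8 genes (horizontal axis) in 4 comparisons, with the SE of the model as bars and open symbols where the gene was not called. TIMP4 is the highest point at 3.40 in siP300+OGA against siNC, and TIMP3 the lowest at -1.17 in siP300+OGA against siP300.

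The remaining metalloproteases of the family were mostly below the minimum for the test. Of 19 further MMP genes, 4 passed the minimum for the test, and they were MMP11, MMP17, MMP24 and MMP25. MMP17, a protease held in the membrane by a lipid anchor, was at 7.34 ± 1.06 FPKM in siNC, 3.38 ± 0.127 in siOGA, 2.74 ± 0.119 in siP300 and 4.03 ± 0.0902 in the libraries labelled siP300+OGA (SD, n = 3). It fell in siOGA (log2 difference -0.92, limma adjusted p = 1.5e-06) and in siP300 (-1.15, adjusted p = 2.15e-07), and it rose from siP300 to siP300+OGA (0.43, adjusted p = 0.000983). The direction in siP300 was thus opposite to that of MMP14 and MMP15. MMP24, a further membrane-bound member, rose from 15.4 FPKM in siNC to 19.7 FPKM in siOGA (0.34, adjusted p = 0.000179) and to 22.4 FPKM in siP300+OGA (0.52, adjusted p = 8.13e-06).

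MMP25, which is lipid-anchored like MMP17, rose from 0.799 FPKM in siNC to 1.78 in siOGA, 1.29 in siP300 and 2.33 in siP300+OGA (limma adjusted p = 7.56e-05, 0.00508 and 6.31e-06). MMP11, known as a stromelysin, rose in siOGA and siP300 (0.38 and 0.41, limma adjusted p = 0.00322 and 0.00218) and was back at 0.888 FPKM in siP300+OGA, against 0.89 in siNC. In total 3 of the 4 were called higher and 1 lower in siOGA, likewise in siP300, with median log2 differences of 0.36 and 0.28. This count and those of the lists that follow stand beside the 66.9%, 65.9% and 48.2% of all tested genes called in siOGA against siNC, siP300 against siNC and siP300+OGA against siP300, and beside all-gene medians of 0.01, -0.04 and 0.03. Among the 15 below the minimum, MMP19 reached 1.09 FPKM in siP300 from 0.0473 in siNC, and MMP23B 0.925 from 0.178. MMP16 was at 0.103 FPKM in siNC, 0.78 in siOGA, 0.733 in siP300 and 0.231 in siP300+OGA. MMP7, MMP20 and MMP27 were listed at 0 in all 12 libraries.

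TIMP3 also inhibits ADAM and ADAMTS proteases, which shed cell surface proteins and cut matrix proteoglycans. Of 13 catalytic ADAM genes 7 were tested. In siOGA against siNC 3 of these rose, 2 fell and 2 were not called. In siP300 against siNC 3 of these rose, 1 of which (ADAM8) reached the minimum only with siP300 counted, 1 fell and 3 were not called, and from siP300 to siP300+OGA 1 rose, 4 fell and 2 were not called. ADAM19, which sheds neuregulin, went from 0.565 FPKM in siNC to 5.28 in siP300 (log2 difference 2.01, limma adjusted p = 8.38e-10) and to 2.09 in siP300+OGA (-1.03 against siP300, adjusted p = 6.67e-07). ADAM9 rose in siOGA, from 2.07 to 4.19 FPKM (0.76, adjusted p = 6.23e-07), and in siP300, to 3.56 FPKM (0.57, limma adjusted p = 5.43e-06). In siP300+OGA it was at 1.89 FPKM (-0.66 against siP300, adjusted p = 5.33e-06). ADAM17, the main sheddase of tumour necrosis factor, stood at 4.08 FPKM in siNC, 3.84 in siOGA and 3.98 in siP300 and was called in neither siRNA group against siNC (adjusted p = 0.248 and 0.6).

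Of 19 ADAMTS genes 8 were tested. In siOGA against siNC 6 rose and 2 fell, and in siP300 against siNC 2 rose, 3 fell and 3 were not called. Of the 6, 4 (ADAMTS15, ADAMTS16, ADAMTS19 and ADAMTS20) reached the minimum of 1 FPKM only with the siOGA libraries counted. Nothing is therefore read from that count, and these 4 are given without adjusted p-values. ADAMTS19 was at 0.225 FPKM in siNC, 3.88 in siOGA, 1.6 in siP300 and 0.427 in siP300+OGA. ADAMTS20 was at 0.738 FPKM in siNC and 2.65 in siOGA, and ADAMTS16 at 0.75 and 2.35. ADAMTS2, which trims procollagen, rose in siOGA (log2 difference 0.93, limma adjusted p = 1.98e-06).

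Other genes activate, restrain or clear the proteases. Of 19 such genes 11 were tested. In siP300 against siNC 7 rose and 4 fell, in siOGA against siNC 5 rose, 3 fell and 3 were not called, and from siP300 to siP300+OGA 1 rose, 5 fell and 5 were not called. The shares called in siOGA and from siP300 to siP300+OGA were near those of all tested genes, and the list medians were 0.41 in siP300, 0.12 in siOGA and -0.10 from siP300 to siP300+OGA. PLAU, a plasminogen activator, was at 3.19 ± 0.522 FPKM in siNC, 6.28 ± 0.951 in siOGA, 10.7 ± 0.503 in siP300 and 3.27 ± 0.0748 in the libraries labelled siP300+OGA (SD, n = 3). It rose in siP300 against siNC and fell from siP300 to siP300+OGA (log2 differences 1.49 and -1.46, limma adjusted p = 1.91e-07 and 9.03e-07).

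FURIN, which cuts the precursors of MMP14 and MMP15, rose in siOGA (0.35, limma adjusted p = 0.00018) and in siP300 (0.68, adjusted p = 9.41e-07), with 10.7 FPKM in siNC, 14 in siOGA and 17.8 in siP300. LRP1, a receptor that takes up proteases bound to TIMPs, was at 5.27 FPKM in siNC, 14.6 in siOGA, 19.1 in siP300 and 17.1 in siP300+OGA (1.32, 1.68 and 1.53, adjusted p = 1.96e-09, 2.01e-10 and 6.66e-10). RECK, a membrane-anchored restrainer of MMPs, rose in siP300 from 1.98 to 2.96 FPKM (0.41, adjusted p = 6.06e-05) and was not called in siOGA (-0.12, adjusted p = 0.0719). BSG, an inducer of MMP synthesis, fell in siP300 (-0.39, adjusted p = 6.58e-05).

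**Figure D4:**
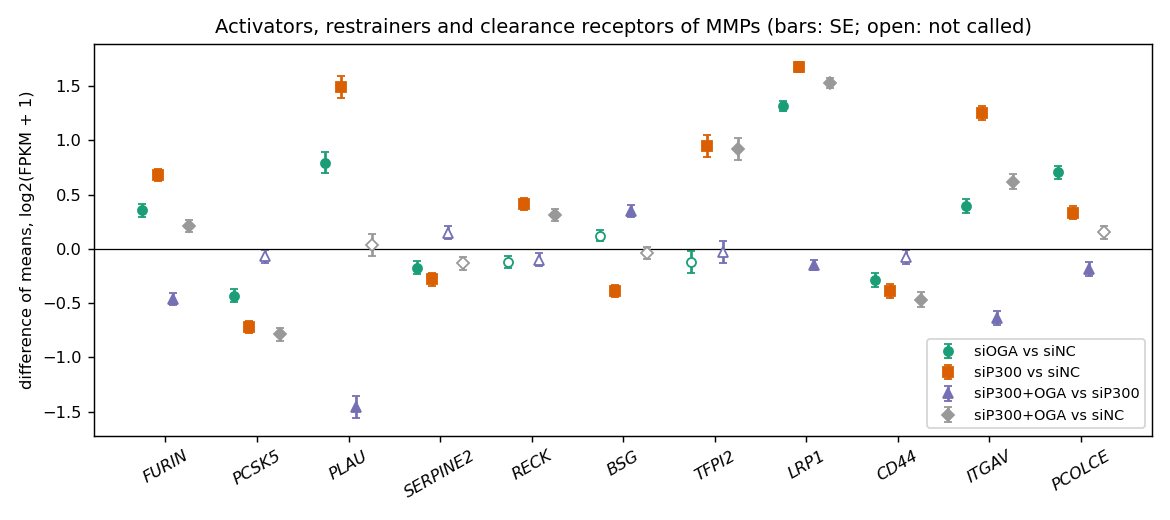
Differences of group means on the log2(FPKM + 1) scale (vertical axis) for the 11 tested genes that activate, restrain or clear MMPs (horizontal axis) in 4 comparisons, with the SE of the model as bars and open symbols where the gene was not called. LRP1 has the highest point, 1.68 in siP300 against siNC, and PLAU the lowest, -1.46 in siP300+OGA against siP300.

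AP-1 and ETS factors are known to bind the promoters of several MMP genes. Of 12 such genes 8 were tested, and in siP300 against siNC 4 rose, 3 fell and 1 was not called. The 4 that rose were the AP-1 genes tested, FOS (log2 difference 0.81, limma adjusted p = 5.82e-06), JUN, JUNB (0.47, adjusted p = 0.00016) and JUND (0.76, adjusted p = 3.8e-07), and the 3 that fell were the ETS genes ETV4, ETS1 (-0.20, adjusted p = 0.00799) and ELK1 (-0.56, adjusted p = 1.75e-06). Below the minimum, FOSL1 was at 0.0484 FPKM in siNC and 2.69 in siP300, and FOSL2 at 0.169 and 3.15. JUN was at 3.69 FPKM in siNC, 7.6 in siOGA, 36.1 in siP300 and 7.28 in siP300+OGA (log2 differences from siNC 0.87, 2.99 and 0.82, limma adjusted p = 4.6e-07, 3.15e-11 and 9.71e-07). ETV4, an ETS factor, stood at 18.6, 31.4, 7.82 and 33.6 FPKM in the same order, and so fell in siP300 (-1.15, adjusted p = 9.19e-09) and rose in siOGA (0.73, adjusted p = 4.12e-07). Binding was not measured, and the part of these factors in the levels of the 8 genes was not tested. The promoter search took only the exact letters TGANTCA, and TIMP2, MMP2 and MMP9 had no window.

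Fibroblasts express many of these proteases and inhibitors, and mouse fibroblasts were the feeder layer. Of 15 fibroblast markers 5 passed the minimum, namely COL1A1, COL1A2, THY1, TWIST1 and VIM. All 5 rose in siOGA and in siP300 against siNC, while from siP300 to siP300+OGA 4 fell and 1, THY1, rose. The summed level of the 15 was 8.03 to 9.34 FPKM in siNC, 26.3 to 27.7 in siOGA, 57.3 to 59.2 in siP300 and 18.4 to 19.4 in the libraries labelled siP300+OGA. COL1A1 stood at 1.86 FPKM in siNC and 17.5 in siP300, and VIM at 0.863 and 15, while DCN was listed at 0 in siOGA, siP300 and siP300+OGA and averaged 0.00723 FPKM in siNC. The highest group means of LUM, POSTN, FAP and PRRX1 were 0.0807, 0.0998, 0.0105 and 0.0116 FPKM. ACTA2, COL3A1, PDGFRB, S100A4 and TWIST2 were highest in siP300, at 0.52, 0.476, 0.576, 0.208 and 1.09 FPKM. The part of these markers in the levels of TIMP1, TIMP2, TIMP3, MMP9 and MMP14, which also were highest in siP300, was not tested. TIMP4, MMP2 and MMP15 were highest in other groups than this sum.

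Markers of embryonic lineages and of the pluripotent states were also read in the same libraries. The sum of 10 trophectoderm markers was 32.4 to 34.9 FPKM in siNC, 31.9 to 37.7 in siOGA, 33.1 to 35.3 in siP300 and 20.8 to 21.3 in the libraries labelled siP300+OGA. Most of that sum is TFAP2C, at 30.7 FPKM in siNC, which fell in siP300 to 16.1 (log2 difference -0.89, limma adjusted p = 4.99e-08), while 3 of the 4 tested markers rose there. CGA, a hormone subunit of the placenta, went from 1.14 to 9.22 FPKM, KRT7 from 0.633 to 1.29 and GATA2 from 0.449 to 2.98. These 3 reached the minimum only with the siP300 libraries counted. KRT7 needed the siOGA libraries as well, where it was at 1.35 FPKM. Nothing is therefore read from the count of these 3, which are given without adjusted p-values. Below the minimum, GATA3 was at 0.301 FPKM in siNC and 2.21 in siP300, VGLL1 at 0.0131 and 0.903, and NR2F2 at 0.0494 and 0.819. In siP300+OGA, CGA was at 0.0588 FPKM and GATA2 at 0.54. The sum of 8 hypoblast markers was 4.51 to 5.03, 7.93 to 9.09, 7.22 to 7.84 and 5.56 to 6.13 FPKM in siNC, siOGA, siP300 and siP300+OGA, in that order. Most of that sum is the collagen gene COL4A1, at 2.72, 5.28, 5.90 and 4.14 FPKM in the same order. The other 7 were below the minimum and averaged under 1 FPKM in every group, except APOA1 in siOGA, at 2.32 FPKM. Among 10 naive and core pluripotency genes, 7 fell, 2 rose and 1 was not called in siOGA against siNC, and all 10 fell in siP300. Of 9 tested primed genes, all 9 rose in siOGA, where ZIC2 reached the minimum only through that group, and 8 rose and 1 fell in siP300. THY1 is among these 9 and is also 1 of the 5 tested fibroblast markers, so it is counted in both lists. The change in these markers stands beside that of the 8 genes in the same libraries, and its part in them was not tested.

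The genes whose levels followed each member most closely were taken by Pearson's r of log2(FPKM + 1) over the 12 libraries. These r values describe 4 groups of 3 libraries and mostly reflect the group means, so they carry no p-value. MMP15 was followed most closely by SEPTIN9 (r = 0.998), TIMP3 by the collagen gene COL1A2 (0.995), TIMP2 by AP2A2 and SLFN12 (0.994 each), MMP2 by the citrate synthase gene CS (0.993), MMP14 by SYDE1 (0.991), TIMP4 by PPP1CA (0.986), TIMP1 by PSME1 (0.977) and MMP9 by THAP10 (0.966). The next in line were ADD2 and MMAB for MMP15 (0.977 each), NUAK2 (0.992) and CHD7 (0.991) for TIMP3, and NES (0.993) for TIMP2. For TIMP4 they were CBFA2T3 (0.984) and ADGRA2 (0.983), and for MMP2 ATP1B2 (0.990) and RNF41 (0.989). For the others they were PFKP (0.990) and ARHGDIA (0.989) with MMP14, FERMT2 (0.976) and CLDN3 (0.973) with TIMP1, and UBL3 (0.958) and IFIT1 (0.956) with MMP9. No member was among the closest 3 of another.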

How the data were processed

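The deposited table holds FPKM that the authors computed for 62753 genes, with 1 gene emptied in the table as given. Per the submitters' processing notes, the tools were HISAT2 2.0.4, StringTie 1.3.4d, cutadapt 1.9, edgeR, UMI-tools and DESeq2, with the build GRCh38, and the step each served is not stated. Each value above 0 was a whole number of reads (100% within 0.01), or of fragments. Library sizes implied by the FPKM were 0.935 to 1.06 times the summed reads. Limma 3.58.1 in R 4.3.3 was fitted on log2(FPKM + 1) with an intensity trend over all 12 libraries (8 residual degrees of freedom), for the 13166 genes that averaged at least 1 FPKM, and p-values were Benjamini-Hochberg adjusted within each of 5 comparisons. The members, lists and tests were chosen with earlier results of these data known. Named were all 8 members and the 3 genes most correlated with each. Of each list, some called genes were named, and others that a sentence on the list needs. The called genes named were not always those of largest difference. In siP300 against siNC, ITGAV (log2 difference 1.25) and TFPI2 (0.95) exceeded RECK and BSG of the same list and were not described above. Alternatives changed the pseudocount, minimum, scaling, trend, groups fitted, regional centring and libraries, and used limma-voom on the recovered reads. A gene of the lists is not reported here.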

Additional observations from a re-analysis of the deposited data

How the results depend on the processing

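Over 24 alternatives, the members gave 950 log2 differences in 40 pairs of gene and comparison. Of these, 938 kept their side of the threshold, 12 were no longer called, and 0 with a call in either fit reversed. Direction was not counted where neither fit called the gene. MMP2 in siP300+OGA against siP300, not called, ran from -0.03 to 0.04 with 1 library left out. The siOGA to siNC difference of MMP9 (0.25) was not called with no minimum on FPKM (0.25) or with regional medians removed (0.15). Nor was it called when siNC replicate 1 (0.23), siNC replicate 3 (0.21), siOGA replicate 2 (0.24), siOGA replicate 3 (0.19) or siP300 replicate 1 (0.25) was left out. The same difference of MMP14 (-0.22) was not called in a fit of only these groups, or when siNC replicate 1 (-0.17), siNC replicate 2 (-0.20) or siOGA replicate 3 (-0.15) was left out. With regional medians removed, MMP15 in siP300+OGA against siP300 was not called (0.19), and MMP14 in siP300+OGA against siNC went from 0.38 to 0.17, still called. A mean of at least 5 FPKM left TIMP3 and MMP2 untested.

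In the order siOGA against siNC, siP300 against siNC, siP300+OGA against siP300, siP300+OGA against siNC and siOGA against siP300, the genes called were 8806, 8672, 6342, 8022 and 9761. With a mean of at least 5 FPKM they were 5117, 5172, 4139, 4784 and 5585, since fewer genes were tested. The replicate block gave 8855, 8754, 6399, 8051 and 9777 and changed no member's call. Over 18 pairs of libraries with 1 number, deviations from the group means correlated at -0.0575 to 0.131, highest between siNC and siOGA replicate 3. Pairs with different numbers were not compared. Whether a number marks a shared culture, batch or day therefore stays unknown. Limma-voom on the recovered reads called 8961, 8923, 6716, 8235 and 9870, and averaging the closest pair of libraries (replicates 2 and 3 of siP300+OGA), an alternative chosen after seeing the data, called 8770, 8665, 5616, 7408 and 9726. Leaving out 1 library gave 8230 to 8744, 8129 to 8897, 5570 to 6717, 7393 to 8293 and 9270 to 9741. Of 200 counts of list genes called under other settings, 54 moved by over 1.5 times, among settings that changed the minimum FPKM or the scaling. The reads recovered from FPKM limit how finely low genes such as TIMP3 and MMP2 in siNC can be compared.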
